A study of Mus musculus with 8 samples.

Results

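The genes described here are 6 transcription factor genes of myeloid differentiation: Cebpa, Cebpb and Cebpe, which encode C/EBP factors, Spi1, which encodes PU.1, and the repressor genes Gfi1 and Gfi1b. They were taken by name, by a rule that uses no measured value, although earlier results of these data were known when the list was made, out of 27318 gene identifiers in the count tables, and all 6 were found there (ENSMUSG00000034957, ENSMUSG00000056501, ENSMUSG00000052435, ENSMUSG00000002111, ENSMUSG00000029275 and ENSMUSG00000026815, in the order just given). The study index sorted single LSK cells, the lineage-negative, Sca1-positive, Kit-positive fraction of mouse bone marrow that holds stem cells and multipotent progenitors, into 384-well plates and counted their polyadenylated RNA with CEL-seq2, a protocol that tags the 3' end of each transcript and pools the wells of a plate. All cells carry 1 label, LSK, and each plate is described as coming from Dach1 reporter mice, aged 8 to 16 weeks; the protocol texts, shared by all plates, also name C57BL/6 mice. Thus the comparisons are between cells of the same plate that differed in the fluorescence recorded at the sort. In these mice the Dach1 locus carries a biotin tag before its stop codon and an IRES-GFP cassette behind it, derived from 1 targeted C57BL/6 embryonic stem cell clone passed through Balb/c chimeras. GFP therefore reports transcription of Dach1, a transcriptional cofactor gene. The labels do not say which animals, or how many, filled each plate, and the spread that the p-values below rest on is that of plates, some or all of which may be technical.

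C/EBPα starts the granulocyte and monocyte programme in early progenitors and switches on genes of the primary granules, among them Mpo and Elane. C/EBPβ acts in monocytes and in the granulocyte response to infection, and C/EBPε governs the later secondary granule stage. PU.1 is needed for both myeloid and lymphoid development and acts by dose, often with IRF8 as a partner. GFI1 and GFI1B are related zinc finger repressors that recruit the LSD1 and CoREST complex: GFI1 restrains stem cell division and is needed for neutrophils and lymphocytes, while GFI1B is needed for red cells and platelets. Mpo (myeloperoxidase), Dntt (the lymphoid enzyme terminal transferase) and Irf8 (a monocyte, dendritic and B cell factor) mark 3 directions open to LSK cells.

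The promoters of Gfi1b, Cebpa and Cebpb, which carry most of the calls below, are shown so that their binding letters can be read beside the values. They come from RefSeq with build GRCm38.p6 and run from 250 bases before to 50 bases after the annotated start; 4 of the 6 members had an entry, and Cebpe and Spi1 are named only. Capitals mark AATC or its reverse GATT, the core letters bound by GFI1 and GFI1B, and GATAA or its reverse TTATC, the GATA letters, in Gfi1b, which lies on the minus strand at chr2:28621933-28622232. In Cebpa, on the plus strand at chr7:35119043-35119342, and in Cebpb, on the plus strand at chr2:167688665-167688964, capitals mark TTGCG or CGCAA, which are C/EBP letters, and TATAAA or TTTATA, the TATA box.
Gfi1b: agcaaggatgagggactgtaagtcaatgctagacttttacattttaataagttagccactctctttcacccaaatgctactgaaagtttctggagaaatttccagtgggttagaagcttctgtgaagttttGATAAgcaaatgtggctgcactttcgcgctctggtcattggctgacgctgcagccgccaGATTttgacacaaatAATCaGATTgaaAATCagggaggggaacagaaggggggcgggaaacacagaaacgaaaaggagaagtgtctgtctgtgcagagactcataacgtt
Cebpa: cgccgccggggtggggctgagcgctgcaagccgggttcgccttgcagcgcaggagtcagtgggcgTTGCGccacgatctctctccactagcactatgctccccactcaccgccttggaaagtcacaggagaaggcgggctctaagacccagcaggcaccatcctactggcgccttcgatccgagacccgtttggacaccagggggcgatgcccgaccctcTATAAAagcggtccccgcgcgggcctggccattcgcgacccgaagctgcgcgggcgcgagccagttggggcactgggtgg
Cebpb: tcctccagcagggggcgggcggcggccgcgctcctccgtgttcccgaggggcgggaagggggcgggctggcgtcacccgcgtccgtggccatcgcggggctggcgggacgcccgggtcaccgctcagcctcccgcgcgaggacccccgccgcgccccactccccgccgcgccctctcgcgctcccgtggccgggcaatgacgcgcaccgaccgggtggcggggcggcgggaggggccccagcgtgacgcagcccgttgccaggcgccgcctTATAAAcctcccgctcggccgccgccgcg
The Gfi1b promoter held 4 AATC or GATT matches, which do not overlap one another, and 1 GATAA. Of 32851 mouse promoters of this length 73.1% held AATC or GATT at least once and 10.1% held it 4 times or more, while 25.4% held GATAA or TTATC. The Cebpa promoter held 1 TTGCG, found with its reverse in 17.4% of promoters, and Cebpa and Cebpb each held 1 TATAAA, found with its reverse in 13.6%. The purine-rich ETS letters GAGGAAG, found with their reverse CTTCCTC in 13.6% of promoters, were in none of these 3 windows. These matches describe letters in a window and do not show binding.

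After filters on counts, detected genes and mitochondrial share, 2712 of 2987 wells with a sort record were kept, 335 to 340 a plate. They came from 2 sets of 4 plates, named LC and LCE in the labels, which is the one batch the labels give. Median counts per cell were 11586 to 13398 on LC plates and 5627 to 7525 on LCE plates, and each plate's kept counts summed to between 2091816 and 5192543. LSK markers (Ly6a, Kit, Flt3, Cd34, Hlf and Meis1) were all detected. However, 155 kept cells, 88 on LC and 67 on LCE plates, were rich in markers of another lineage, 118 of them of the B lineage and 29 of macrophages. These cells held 3.27% of Cebpa counts, 5.40% of Cebpb, 0.763% of Cebpe, 4.61% of Spi1, 4.11% of Gfi1 and 7.85% of Gfi1b counts.

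Spi1 was the most abundant member and Cebpe the rarest. Summed over the cells of a plate, Spi1 reached 111 ± 29.5 CPM (SD, n = 8 plates; CPM are a gene's counts per plate or group of cells, divided by all counts there and scaled alike throughout) and was seen in 54.6% of cells. Gfi1 followed at 46.7 ± 13.0 CPM and 30.4% of cells. Cebpa stood at 31.1 ± 9.65 CPM and Cebpb at 27.2 ± 10.4 CPM, which do not differ beyond their spread, with 20.4% and 19.5% of cells. Gfi1b reached 11.6 ± 4.22 CPM and 7.74% of cells, and Cebpe 3.69 ± 3.51 CPM and 2.84% of cells. Because the protocol counts 3' ends, these are levels per transcript end and not per length. In plate sums, fewer cells that express a gene and less RNA per cell cannot be told apart.

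The 3 C/EBP genes and Spi1 were higher on every LC plate than on every LCE plate, while Gfi1 and Gfi1b overlapped between the sets. The share of all genes that separate the sets in this way was not counted, so this is not shown to be particular to the members. Irf8 separated them too, with 73.4 to 117 CPM on LC plates and 45.9 to 59.4 CPM on LCE plates. Cebpa had 47.1, 31.1, 32.2 and 43.1 CPM on LC plates against 25.3, 27.3, 23.3 and 19.3 CPM on LCE plates. Cebpb had 36.6, 42.2, 29.7 and 36.8 CPM on LC plates against 21.8, 18.6, 15.3 and 16.95 CPM on LCE plates. Cebpe had 124 counts in 70 LC cells and 7 counts in 7 LCE cells. Spi1 averaged 135 ± 22.5 CPM on LC plates and 87.8 ± 4.81 CPM on LCE plates (SD, n = 4 each). Gfi1 averaged 50.8 ± 16.1 CPM on LC plates and 42.6 ± 9.47 CPM on LCE plates, and Gfi1b 12.3 ± 6.20 CPM and 10.9 ± 1.33 CPM. Mpo ran the same way, with 1107 to 1589 CPM on LC plates and 143 to 282 CPM on LCE plates, whereas Dntt was lower on LC plates, 88.0 to 175 CPM against 273 to 338 CPM. Set, depth and any difference in the sort cannot be told apart here, so the differences below are within plates, and no test was made of these levels.

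**Figure D1:**
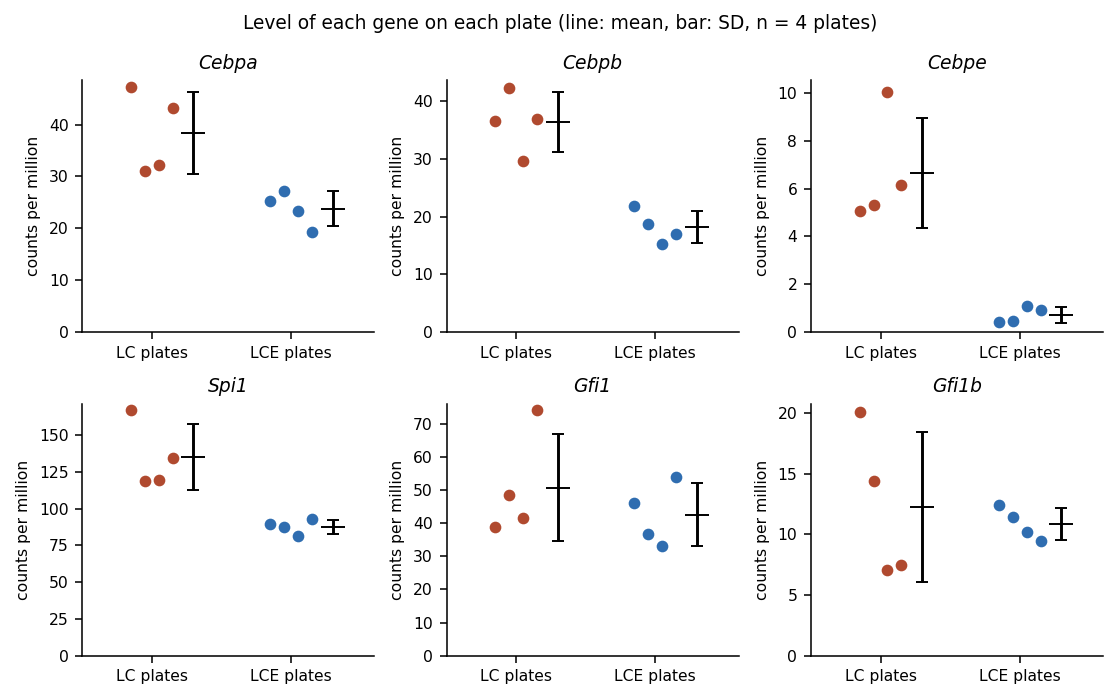
Level of each member on each plate in CPM; points are plates, bars are mean and SD over the 4 plates of a set. Cebpa, Cebpb, Cebpe and Spi1 are higher on all 4 LC plates than on any LCE plate, whereas Gfi1 and Gfi1b overlap. The share of all genes that separate in this way was not counted.

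Surface CD135, the receptor FLT3, separates multipotent cells with lymphoid potential (high) from stem cells and the myeloid and erythroid biased progenitors (low). In each plate the highest tercile of cells by CD135 was compared with the lowest, 111 to 113 cells an arm. Gfi1b was lower in CD135-high cells on 8 of 8 plates, Cebpb on 7 of 8 and Cebpe on 8 of 8, while Cebpa, Spi1 and Gfi1 did not pass the test. Of 5 members tested 2 were called, beside a background of 11.2% of 10441 genes called in either direction (5.12% lower).

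Gfi1b ranged over 1.41, 5.01 and 12.4 CPM (lowest, median and highest plate) in CD135-high cells and over 9.79, 17.3 and 38.2 CPM in CD135-low cells. On each plate the high arm lay below the low arm, although the arms overlap across plates. The log2 difference was -1.88 ± 0.26 (SE; edgeR quasi-likelihood test, adjusted p = 5.11e-07), resting on 55 counts in the high arms and 212 in the low arms. It was -1.98 on LC plates and -1.72 on LCE plates. The fall was steepest at the bottom of the CD135 range: Gfi1b averaged 27.7 ± 13.3 CPM in the lowest of 5 rank groups, 11.9 ± 4.65 CPM in the next, and 5.61 to 6.88 CPM in the upper 3. Markers of red cells and platelets were also lower in CD135-high cells, but this was not particular to them. Of 8 tested B lineage markers 8 fell (median log2 difference -1.43), and of 3 tested plasma cell markers 2 fell and 1 rose. Summed erythroid markers came to 14.6 to 183 CPM in CD135-high arms, against 23.1 to 854 CPM in CD135-low arms, with none of the 6 at 0. Megakaryocyte and platelet markers came to 15.7 to 42.5 CPM in CD135-high arms, against 58.1 to 167 CPM in CD135-low arms, with none of the 5 at 0. Gata1, an erythroid and megakaryocyte factor, fell by 2.59 on the log2 scale and Gata2, a stem and megakaryocyte factor, by 1.08. Without the 155 cells rich in markers of another lineage the Gfi1b difference was -1.93 ± 0.26 (adjusted p = 6.15e-07).

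Cebpb ranged over 11.4, 17.8 and 29.1 CPM in CD135-high cells and over 10.9, 32.1 and 52.2 CPM in CD135-low cells. Its log2 difference was -0.73 ± 0.17 (adjusted p = 0.0017). It was -0.97 ± 0.19 (adjusted p = 0.00012; 12.1% of genes called) on LC plates against -0.11 ± 0.31 (adjusted p = 0.96) on LCE plates, but the difference between the sets did not pass the test (-0.86 ± 0.36, adjusted p = 0.42; 0.642% of genes called). With DESeq2 the adjusted p of Cebpb was 0.057. Cells rich in B lineage markers numbered 13 in CD135-high and 82 in CD135-low arms; without all cells rich in another lineage Cebpb differed by -0.75 ± 0.18 (adjusted p = 0.0037).

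Cebpe was too sparse for the filter on low counts. It had 10 counts in CD135-high arms and 107 in CD135-low arms, and a fit of all detected genes gave -3.29 ± 0.43 (adjusted p = 3.91e-12; 5.14% of genes called in that fit). Single cells weigh heavily on it, since 1 cell held 9.38% to 25% of its counts on each LC plate, and the LCE plates had only 1 to 3 counts each. Cebpa averaged 26.5 ± 6.63 CPM in CD135-high cells, against 31.5 ± 18.2 CPM in CD135-low cells (SD, n = 8; log2 difference -0.27 ± 0.17, adjusted p = 0.37). It leaned opposite ways in the sets, -0.50 ± 0.19 on LC and 0.28 ± 0.29 on LCE plates, and neither passed the test. Spi1 averaged 117 ± 29.3 CPM in CD135-high cells, against 109 ± 36.5 CPM in CD135-low cells (0.12 ± 0.08, adjusted p = 0.42). Gfi1 averaged 47.0 ± 17.7 CPM in CD135-high cells, against 41.4 ± 15.4 CPM in CD135-low cells (0.17 ± 0.13, adjusted p = 0.49).

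Genes that these factors act on or with were read in the same comparison, and the part of the members in their values was not tested. Of 17 known C/EBP and PU.1 target genes of the myeloid programme, 16 were tested; 10 fell and 2 rose in CD135-high cells, with a median log2 difference of -0.93 against 0.0003 over all genes. Ms4a3, a granulocyte-monocyte progenitor gene, fell by 2.48 and Ly6c2, a monocyte surface gene with near-identical neighbours whose counts may be shared, by 2.34. Of 12 lymphoid priming genes tested 9 rose and 1 fell (median 1.18); Dntt rose by 2.09, and Flt3, which encodes CD135 itself, by 2.10. Among 9 PU.1 partners and related factors tested, Spi1 included, 4 rose and 1 fell (median 0.16), and Irf8 rose by 0.83. Of 9 tested genes of the GFI1 corepressor complex only Rcor1, a CoREST subunit, was called, at -0.32, and the list's median was 0.11.

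**Figure D2:**
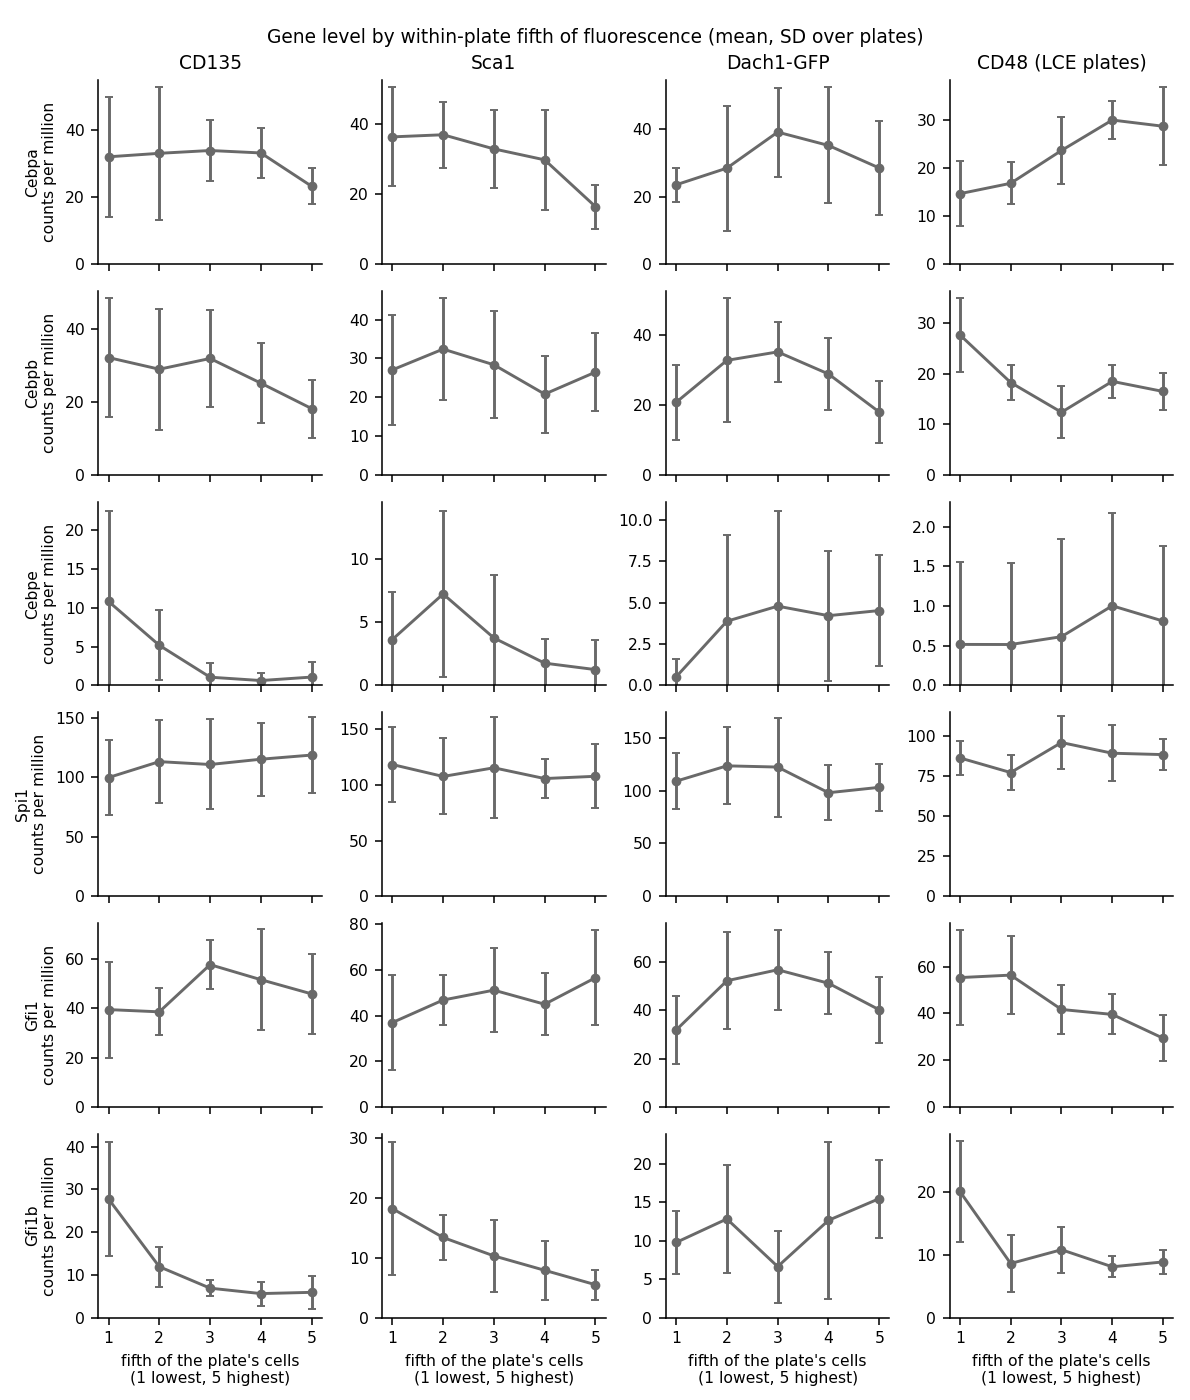
Level of each member (rows, CPM) in 5 equal rank groups of a plate's cells by fluorescence (columns, lowest group left); points are means and bars SD over 8 plates, or over the 4 LCE plates for CD48. Gfi1b drops along CD135 and Sca1, Cebpa is lowest in the top Sca1 group and highest in the upper CD48 groups, and Gfi1 declines along CD48. Along Dach1-GFP, Cebpa, Cebpb and Gfi1 are highest in the middle group.

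Sca1 (Ly6a) is high on stem cells and on lymphoid-primed progenitors, and lower on cells about to leave the LSK gate. Cebpa and Gfi1b fell in the Sca1-high tercile, each on 8 of 8 plates, so 2 of 5 members tested were called beside 11.8% of 10162 genes (6.20% lower). Cebpa had 30.8, 15.3, 19.5 and 25.8 CPM in Sca1-high cells of the LC plates against 45.00, 38.1, 36.3 and 52.6 CPM in Sca1-low cells. On LCE plates Cebpa had 11.1, 21.7, 24.1 and 14.2 CPM in Sca1-high cells against 26.1, 32.7, 26.1 and 18.9 CPM in Sca1-low cells. The arms do not overlap on the LC plates and do on the LCE plates. Over all plates Cebpa differed by -0.79 ± 0.16 (adjusted p = 0.00023), with -0.91 on LC (adjusted p = 0.00059; 9.93% of genes called) and -0.54 on LCE plates (adjusted p = 0.46). Along 5 rank groups it stood at 36.3 ± 14.1 CPM in the lowest and 16.4 ± 6.29 CPM in the highest.

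Gfi1b ranged over 3.15, 5.66 and 11.1 CPM in Sca1-high cells and over 7.43, 13.8 and 29.1 CPM in Sca1-low cells, from 52 and 177 counts. Its log2 difference was -1.35 ± 0.26 (adjusted p = 0.0001). Of 4 tested erythroid markers 2 fell (median -0.73), with sums of 26.0 to 215 CPM in Sca1-high arms, against 30.7 to 793 CPM in Sca1-low arms. Gata1 fell by 2.12. This was not particular to erythroid markers: 5 of 5 tested B lineage markers (median -1.57) and 2 of 2 tested platelet markers (median -1.07) fell too. The part of these cells in the Gfi1b result was not tested. Without cells rich in another lineage, 19 in Sca1-high and 89 in Sca1-low arms, Gfi1b no longer passed the filter on low counts and was not tested, while Cebpa stood at -0.86 ± 0.16. Cebpb differed by -0.43 ± 0.17 (adjusted p = 0.098), with -0.74 on LC plates (adjusted p = 0.0083) and 0.28 on LCE plates (adjusted p = 0.81). It was higher in Sca1-high cells on 5 of 8 plates and lower on 3, so the plates did not share the sign of the pooled value. Gfi1 was higher in Sca1-high cells on 8 of 8 plates, 52.8 ± 14.6 CPM against 40.5 ± 16.3 CPM in Sca1-low cells, without passing the test (0.32 ± 0.13, adjusted p = 0.094). Spi1 did not pass it either (-0.12 ± 0.08, adjusted p = 0.36). Cebpe had 14 counts in Sca1-high and 54 in Sca1-low arms and was lower on 7 of 8 plates. The fit of all detected genes gave -1.515 ± 0.50 (adjusted p = 0.0497, with 4.88% of genes called in that fit). Median counts per cell ran from 5054 to 11813 in Sca1-high and from 6342 to 15168 in Sca1-low arms; the part of depth in these results was not tested.

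Of the 15 myeloid targets tested, 7 fell and 1 rose in Sca1-high cells (median -0.34, against 0.01 over all genes), with Ms4a3 at -1.28 and Mpo at -0.96. Irf8 fell by 1.26, the opposite of its rise with CD135, and Ly6a itself rose by 2.01. Only Ehmt2, a histone methyltransferase, was called in the corepressor list, at 0.32.

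When cells were split at both the CD135 and the Sca1 median of a plate, Cebpa fell with Sca1 at equal CD135 (-0.42 ± 0.13, adjusted p = 0.035; 8.11% of 9691 genes called), but the call was lost without any one of LC188, LC189, LC190, LCE407 or LCE410. Here and below, an equal level of a sort measure means the same side of its plate median, within which the measure still varied. Gfi1b was too sparse to be tested in the split by CD135 and Sca1. It averaged 6.46 CPM in cells high for both, 4.78 CPM in CD135-high Sca1-low cells, 8.81 CPM in CD135-low Sca1-high cells and 21.5 CPM in cells low for both, so 1 of the 4 groups stood above the others.

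Dach1-GFP reports which cells transcribe Dach1, whose level is low in lymphoid-primed progenitors. In the GFP-low tercile against the GFP-high tercile 0 of 5 tested members were called at an adjusted p under 0.05, beside 7.74% of 10312 genes; at an unadjusted p under 0.05 Spi1 and Cebpb were past, and DESeq2 called none of the members. Spi1 was higher in GFP-low cells on 8 of 8 plates: it ranged over 88.3, 110 and 174 CPM in GFP-low cells and over 72.7, 96.8 and 147 CPM in GFP-high cells (0.23 ± 0.08, adjusted p = 0.063). GFP-low arms held 117 cells rich in another lineage and GFP-high arms 22, of which 107 and 5 were B lineage; without them Spi1 rose in GFP-low cells by 0.27 ± 0.08 (adjusted p = 0.023). Cebpb averaged 28.3 ± 14.3 CPM in GFP-low cells, against 21.5 ± 6.99 CPM in GFP-high cells (0.44 ± 0.16, adjusted p = 0.087). Cebpa averaged 25.5 ± 10.5 CPM in GFP-low cells, against 30.7 ± 15.6 CPM in GFP-high cells (-0.30 ± 0.17, adjusted p = 0.36). Gfi1 differed by -0.16 ± 0.14 and Gfi1b by -0.22 ± 0.24 (adjusted p = 0.62 and 0.72). Cebpe had 20 counts in GFP-low and 53 in GFP-high arms and was lower on 8 of 8 plates (-1.44 ± 0.46, adjusted p = 0.047, in the fit of all detected genes, where 3.92% were called). Dach1 itself fell by 1.96, Irf8 rose by 2.18, and of 16 myeloid targets tested 3 rose, Ly6c2 (1.64) and the monocyte receptor gene Csf1r (1.39) among them, and 5 fell (median -0.10, against -0.00012 over all genes).

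CD135 and Dach1-GFP ran against each other: at both plate medians, 116 to 135 cells of a plate fell in each of the groups CD135-high GFP-low and CD135-low GFP-high, and 32 to 54 in each of the other groups. Cebpb depended on CD135 among GFP-low cells. It averaged 21.5 ± 7.46 CPM in CD135-high GFP-low cells and 41.2 ± 25.6 CPM in CD135-low GFP-low cells, a log2 difference of -1.04 ± 0.19 (adjusted p = 1.18e-05; 18.1% of 10293 genes called). Among GFP-high cells it averaged 28.3 ± 10.8 CPM in CD135-high cells, against 26.3 ± 9.59 CPM in CD135-low cells (0.09 ± 0.20, adjusted p = 0.95; 0.768% called). The difference between these effects was -1.13 ± 0.28 (adjusted p = 0.0041; 7.16% called). It was largest on LC plates: CD135-low GFP-low cells had 56.5 to 73.8 CPM on LC plates and 10.8 to 34.4 CPM on LCE plates, and fits within a set gave -1.32 (adjusted p = 0.0056) on LC and -0.42 (adjusted p = 0.87) on LCE plates. Without cells rich in another lineage it was -1.24 ± 0.29 (adjusted p = 0.0030).

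Gfi1b averaged less in CD135-high cells whether GFP was low or high. Its CD135 difference was -2.02 ± 0.32 in GFP-low cells (adjusted p = 1.13e-06) and -1.78 ± 0.41 in GFP-high cells (adjusted p = 0.0092), and the difference between them was -0.24 ± 0.60 (adjusted p = 0.88), with an SE too wide to show or exclude a difference of the size seen for Cebpb. The call in GFP-high cells was lost without LC187, LC188 or LC190. It rests on few counts, since CD135-high GFP-high cells held 0 to 4 Gfi1b counts a plate. On LCE408 these cells had 15.3 CPM, above the 10.3 CPM of CD135-low GFP-high cells. At equal CD135, Gfi1b differed with GFP by 0.67 (adjusted p = 0.11; 6.46% called).

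**Figure D3:**
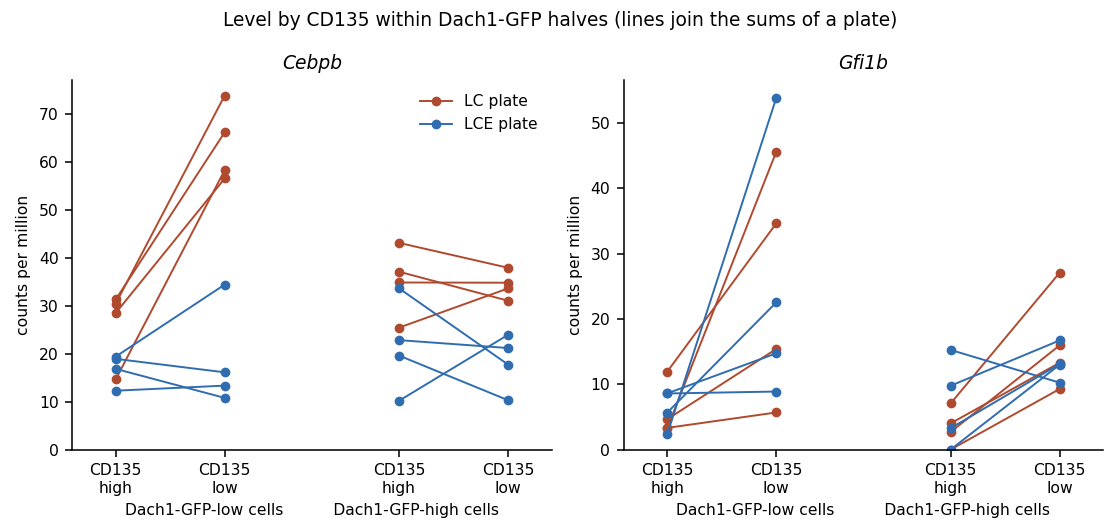
Cebpb and Gfi1b in CPM by CD135 within Dach1-GFP-low and Dach1-GFP-high cells; a line joins the sums of 1 plate. Cebpb is raised in CD135-low GFP-low cells on LC plates (56.5 to 73.8 CPM), and Gfi1b averages more in CD135-low cells at either GFP level.

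CD48, which appears on progenitors as they leave the stem cell state, was recorded on the 4 LCE plates. Cebpa rose and Gfi1 fell in the CD48-high tercile, each on 4 of 4 plates, so 2 of 4 members tested were called beside 11.5% of 9076 genes (7.08% higher, 4.45% lower). Cebpa had 27.7, 30.4, 31.5 and 21.5 CPM in CD48-high cells against 13.3, 24.04, 16.0 and 14.2 CPM in CD48-low cells of the same plates. Only the lowest high arm lay below the highest low arm. The log2 difference was 0.77 ± 0.26 (adjusted p = 0.038). Gfi1 had 41.6, 24.3, 29.7 and 36.2 CPM in CD48-high cells against 63.1, 51.5, 33.3 and 79.96 CPM in CD48-low cells (-0.71 ± 0.19, adjusted p = 0.0077). Gfi1 was lowest, 29.4 ± 9.83 CPM, in the top of 5 rank groups and stood at 55.4 ± 20.5 CPM in the bottom one.

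Both calls were fragile. The Cebpa call was lost without LCE407, LCE409 or LCE410 and the Gfi1 call without LCE408 or LCE410, and DESeq2 gave adjusted p = 0.61 for Cebpa and 0.35 for Gfi1. With each cell thinned to 3000 counts Gfi1 differed by -0.78 (adjusted p = 0.053). Median counts per cell were 7127 to 9770 in CD48-high and 4688 to 6437 in CD48-low arms, so the arms differ in depth. Gfi1b had 6.30 to 10.2 CPM in CD48-high and 11.6 to 22.3 CPM in CD48-low cells, arms that do not overlap, but with 32 and 41 counts it failed the filter, and the fit of all detected genes gave -0.83 ± 0.34 (adjusted p = 0.18; 5.16% called). Cebpb was lower on 4 of 4 plates without passing the test (-0.36 ± 0.26, adjusted p = 0.44), and Spi1 differed by 0.04 ± 0.14 (adjusted p = 0.92). Of 11 myeloid targets tested 6 rose and 1 fell (median 0.28, against -0.01 over all genes): Ctsg, which encodes cathepsin G, by 1.73 and Mpo by 1.24. The stem cell gene Hlf fell by 1.19. At equal CD135, Gfi1 fell with CD48 by 0.63 ± 0.16 on the log2 scale (adjusted p = 0.0051; 10.9% of 8566 genes called), a call lost without LCE410, and Cebpa differed by 0.56 ± 0.21 (adjusted p = 0.074).

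The members were then compared between cells rich and poor in Mpo, Dntt or Irf8 RNA. The highest tercile of a plate's cells by the gene's share of counts, cells at 0 left out, was set against the lowest. All cells at 0 were in the low arm, so the arms were often unequal. Low arms held 113 to 170 cells for Mpo, 113 to 200 for Dntt and 175 to 271 for Irf8, and high arms 111 to 114, 111 to 113 and 64 to 113. Irf8 was seen in 39.7% of LC and 23.6% of LCE cells. Its low arms are therefore cells without an Irf8 count, and its high arms on LCE plates are all cells with a count. Cebpa, Cebpb and Spi1 rose in Mpo-high cells and Gfi1b fell, 4 of 5 members tested, beside 6.85% of 10468 genes (3.82% higher, 3.03% lower). Cebpa ranged over 25.3, 42.4 and 82.9 CPM in Mpo-high cells and over 15.3, 20.3 and 23.5 CPM in Mpo-low cells. It was the only tested member whose arms did not overlap over all 8 plates, and it differed by 1.32 ± 0.16 (adjusted p = 2.14e-07). Its difference was 1.58 on LC plates (adjusted p = 1.58e-09) and 0.82 on LCE plates, where it did not pass the test (adjusted p = 0.36, with 19 of 10468 genes called). Cebpb ranged over 13.7, 36.3 and 57.1 CPM in Mpo-high cells and over 7.69, 21.5 and 28.5 CPM in Mpo-low cells (0.96 ± 0.19, adjusted p = 0.00084; higher on 7 of 8 plates). Its difference was 1.27 on LC plates (adjusted p = 3.80e-06) and 0.24 on LCE plates (adjusted p = 0.99). The difference between sets did not pass the test for Cebpa or Cebpb (adjusted p = 0.32 and 0.21). Cebpe had 113 counts in Mpo-high and 9 in Mpo-low arms and was higher on 8 of 8 plates (3.28 ± 0.43, adjusted p = 1.30e-11, in the fit of all detected genes, where 3.20% were called).

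Spi1 and Gfi1b had unlike values in the 2 plate sets. Spi1 averaged 124 ± 47.2 CPM in Mpo-high and 99.8 ± 12.8 CPM in Mpo-low cells (0.33 ± 0.10, adjusted p = 0.038), higher on 5 of 8 plates. It differed by 0.59 on LC plates (adjusted p = 1.03e-05; 12.3% of genes called) and by -0.12 on LCE plates (adjusted p = 0.99), and the difference between sets passed the test (0.71 ± 0.17, adjusted p = 0.016; 1.08% of genes called). The pooled Spi1 call was lost without any one LC plate, with DESeq2 (adjusted p = 0.36) and without cells rich in another lineage (adjusted p = 0.066), and with each cell thinned to 3000 counts Spi1 differed by 0.02 (adjusted p = 0.98). Gfi1b averaged 7.67 ± 3.55 CPM in Mpo-high and 15.5 ± 9.47 CPM in Mpo-low cells (-1.17 ± 0.28, adjusted p = 0.0060), lower on 6 of 8 plates. On LC plates it differed by -1.84, on LCE plates by -0.01, and the difference between sets was -1.82 ± 0.51 (adjusted p = 0.063); the pooled call was lost without LC187 or LC188 and with DESeq2 (adjusted p = 0.085). Erythroid markers fell in this comparison as well: 4 of 4 tested, of 6, were called lower (median -1.37). They summed to 16.7 to 203 CPM in Mpo-high arms, against 28.5 to 684 CPM in Mpo-low arms, with none at 0. Gata1 fell by 1.41, and of 3 tested platelet markers 1 fell, Itga2b, an integrin gene, by 0.51. Their part in the Gfi1b result was not tested. Gfi1 differed by 0.25 ± 0.13 (adjusted p = 0.29), with 0.50 on LC plates (adjusted p = 0.023). Mpo RNA was present in 99.4% of LC and 57.9% of LCE cells, so the low arms of the LCE plates are made of cells at 0, and the share of this in the set differences was not tested. Mpo set the arms and is left out of its own list: of the 15 other myeloid targets tested, 11 rose and 0 fell (median 1.30, against -0.01 over all genes), and Ms4a3 rose by 2.74. Cebpd, a further C/EBP gene, rose by 0.99 ± 0.25 (adjusted p = 0.010).

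Dntt and Irf8 gave 1 call each. In Dntt-high cells Gfi1b averaged 7.36 ± 3.78 CPM and in Dntt-low cells 14.05 ± 6.83 CPM (-0.90 ± 0.27, adjusted p = 0.044; 3.57% of 10325 genes called). The call was lost with DESeq2 (adjusted p = 0.29) and without LCE407, LCE408 or LCE409, and Gfi1b was too sparse to be tested once any one LC plate was left out. Of 4 tested erythroid markers 1 fell (median -0.60), with sums of 14.9 to 202 CPM in Dntt-high arms, against 35.8 to 750.0 CPM in Dntt-low arms, and Gata1 fell by 1.47. The 1 tested platelet marker fell (-0.73), while 4 of 6 tested B lineage markers rose (median 1.63). Cebpb was lower in Dntt-high cells on 7 of 8 plates without passing the test (-0.44 ± 0.16, adjusted p = 0.12), and Cebpa, Spi1 and Gfi1 differed by -0.15, -0.05 and 0.01. Cebpe had 20 counts in Dntt-high and 54 in Dntt-low arms, the low arms being up to 200 cells. In Irf8-high cells Spi1 ranged over 82.7, 110 and 184 CPM and in Irf8-low cells over 80.7, 95.6 and 141 CPM (0.24 ± 0.07, adjusted p = 0.037; 4.84% of 11366 genes called), higher on 7 of 8 plates. This call too was lost with DESeq2 (adjusted p = 0.11), with cells thinned to 3000 counts (adjusted p = 0.64) and without LC187, LC188, LC190, LCE407 or LCE410. Gfi1 and Gfi1b were each lower in Irf8-high cells on 7 of 8 plates without passing the test (-0.17 ± 0.11 and -0.59 ± 0.24, adjusted p = 0.49 and 0.17). Cebpa was higher in Irf8-high cells on 7 of 8 plates (0.27 ± 0.13, adjusted p = 0.27), and Cebpb differed by 0.15 ± 0.15 (adjusted p = 0.70). Cebpe had 18 counts in Irf8-high and 87 in the larger Irf8-low arms (-1.58 ± 0.42, adjusted p = 0.015, in the fit of all detected genes, where 1.93% were called).

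**Figure D4:**
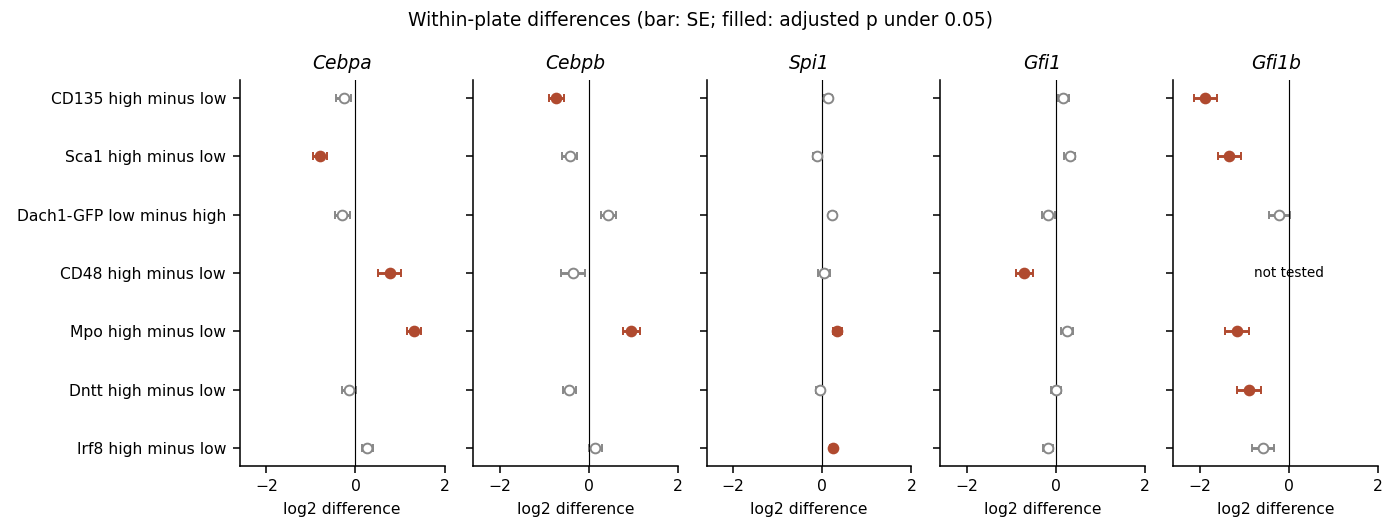
Log2 difference of 5 members in 7 within-plate comparisons, first-named arm over second; bars are SE and filled points have an adjusted p under 0.05. Cebpa has its largest value with Mpo (1.32) and its lowest with Sca1 (-0.79), and Gfi1b is called lower with CD135, Sca1, Mpo and Dntt; Cebpe is left out because it failed the filter in every comparison.

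Within single cells the members followed Mpo to different degrees. The correlation over the cells of a plate, after removal of the dependence on a cell's total, averaged 0.21 for Cebpe, 0.17 for Cebpa, 0.12 for Cebpb, 0.06 for Spi1, 0.04 for Gfi1 and -0.06 for Gfi1b over 8 plates. The cells of a plate share a library, and these weak values in sparse counts are given as a description. Cebpa and Cebpe were above 0 on 8 of 8 plates. On LC plates the average was 0.23 for Cebpa, 0.20 for Cebpb and -0.12 for Gfi1b, and on LCE plates it was 0.11, 0.03 and about 0 (-0.0003). With Dntt and with Irf8 all averages lay between -0.06 and 0.05; Spi1 had the highest value with Irf8 (0.05), and Gfi1b was below 0 with Dntt on 8 of 8 plates.

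**Figure D5:**
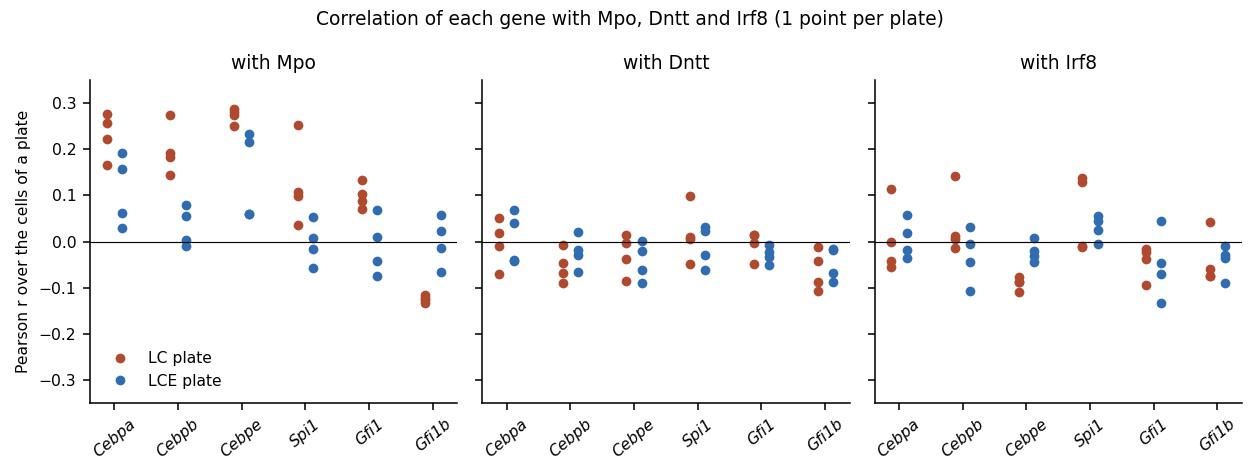
Pearson correlation over the cells of a plate between each member and Mpo, Dntt or Irf8, on log2 values with the dependence on total counts removed; each point is 1 plate. Cebpa and Cebpe sit above 0 with Mpo on 8 of 8 plates and Cebpb on 7 of 8, while Gfi1b sits below 0 with Dntt on 8 of 8; averages with Dntt and Irf8 lie between -0.06 and 0.05.

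The genes most alike to each member were ranked among 9066 by this correlation over 8 plates. Cebpa was most like Mpo (0.17), Ctsg (0.16), Elane (0.14), which encodes neutrophil elastase, and Rab44 (0.12). Cebpb was most like Ly6c2 (0.12), Elane (0.12), Mpo (0.12) and Prtn3 (0.11), a neutrophil protease gene. Spi1 was most like BC035044 (0.09), Plac8 (0.09), H2afy (0.08), a histone variant gene, and Clec12a (0.08), a myeloid lectin receptor gene. Gfi1 was most like the stem cell factor gene Hlf (0.10), Cd63-ps (0.10), Rgcc (0.08) and Bcl2l2 (0.08), a survival gene; Cd63-ps is a pseudogene whose counts may come from its parent. Gfi1b was most like the carbonic anhydrase genes Car1 (0.15) and Car2 (0.13), then Tnfaip2 (0.12) and Sept8 (0.10). Cebpe was detected in too few cells for this ranking.

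To compare shares of cells at 1 depth, each cell was thinned to 3000 counts, leaving out 3 LC and 37 LCE cells below it. Cebpa was then seen in 115 of 1185 LC cells with Mpo (9.71%) and in 1 of 172 LC cells without it (0.581%), and in 7.04% of LCE cells with Mpo and 5.08% without. Before thinning, Cebpa was seen in 27.1% of LC and 13.6% of LCE cells. Cebpa was seen in 14.8% of LC cells with Gfi1 and 7.62% without, and in 8.98% of LCE cells with Gfi1 and 5.31% without. Cebpb was seen in 1 of 42 LC cells with Gfi1b and in 9.58% of those without, and in 0 of 44 LCE cells with Gfi1b and in 4.96% of those without. The correlation of Cebpb and Gfi1b was below 0 on 8 of 8 plates, with a mean of -0.05. In cells rich in B lineage markers, which should lack it, Cebpa had 13.8 CPM, against 34.6 CPM in cells rich in no other lineage. Cebpb had 29.7 CPM there against 30.4 CPM, so its level in these cells was close to that of the rest. Spi1, which B cells express, had 102 CPM against 121 CPM, Gfi1 19.1 CPM against 49.2 CPM and Gfi1b 5.30 CPM against 11.5 CPM.

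Of all kept cells 641 (23.6%) showed none of the 6 genes, 1026 showed 1, 642 showed 2, and 3 cells showed all 6. Median counts rose along this series to 27317 in the cells with 6, against 6186 in the cells with 0, so the number of members seen follows depth. The 70 LC cells with Cebpe were deep as well, with a median of 21246 counts against 12196 in LC cells without it. They held 3249 CPM of Mpo, against 1134 CPM in LC cells without Cebpe, and 3008 CPM of Elane, against 553 CPM. Their Cebpa stood at 98.7 CPM against 33.6 CPM and their Gfi1 at 92.6 CPM against 48.1 CPM, and their CD135 lay low, at a median rank of 21.5% of the plate. These cells were picked by a measured gene and are described without a test.

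CD150, a SLAM receptor of stem cells and megakaryocyte progenitors, and CD16/32, the Fc receptor of myeloid progenitors, were recorded too. Gfi1 fell in CD150-high cells on 8 of 8 plates, 37.7 ± 11.4 CPM against 55.0 ± 17.4 CPM in CD150-low cells (-0.54 ± 0.13, adjusted p = 0.013; 2.06% of 10380 genes called), a call lost without LC188, with DESeq2 (adjusted p = 0.11) and with cells thinned to 3000 counts (adjusted p = 0.46). Gfi1b was higher in CD150-high cells on 7 of 8 plates, 15.6 ± 8.32 CPM against 8.12 ± 2.42 CPM in CD150-low cells, without passing the test (0.92 ± 0.26, adjusted p = 0.060). It rose by 0.99 ± 0.27 (adjusted p = 0.041) without cells rich in another lineage, of which CD150-high arms held 100 and CD150-low arms 23. Unlike Gfi1b, 4 of 4 tested erythroid markers fell in CD150-high cells (median -1.24), while 2 of 2 tested platelet markers rose (median 1.19). By CD16/32, recorded on 4 plates, 0 of 4 tested members were called by the edgeR test, by DESeq2 or at an unadjusted p under 0.05, beside 1.09% of 8796 genes. Gfi1b and Cebpe failed the filter there. Gfi1b was lower in CD16/32-high cells on 4 of 4 plates, with 28 counts against 42 in CD16/32-low cells. The fit of all detected genes gave -0.76 ± 0.35 (adjusted p = 0.74, edgeR quasi-likelihood test, with 0.572% of genes called). Cebpe had 5 counts in CD16/32-high and 1 in CD16/32-low arms.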

How the data were processed

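Per the labels' protocols, marrow cells enriched for CD117 were stained, index sorted singly into 384-well plates and taken through an adapted CEL-seq2 protocol. The authors deposited raw counts per gene and well for 8 plates; which aligner was used, and how molecular identifiers were handled, is not given in the sources used here. Per the submitters' processing notes the build was GRCh38, whereas the identifiers are mouse Ensembl ones, so no coordinates were taken from the files. The deposited sort records hold the fluorescence intensity of each well per the file headers. All plates use 1 set of well positions, so a cell is known by plate and well. The members and gene lists were chosen with earlier results of these data known. The text names the 6 members, Mpo, Dntt and Irf8, and the 4 genes most alike to each member ranked. Other named genes were drawn from the transcripts of sorted proteins and the 2 most changed called genes of each list. Not all of those are named: Jun, Igll1, Pf4, Cd48 and Slamf1 are among the ones left out.

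Cells with 1000 counts, 500 genes and under 20% mitochondrial counts were kept, and doublets were not called. Of 27318 identifiers 27249 matched a symbol. In each plate the highest and lowest tercile by rank were summed, and the sums were compared with edgeR 4.0.16 (R 4.3.3; TMM, filterByExpr, quasi-likelihood test, plate as block), with Benjamini-Hochberg adjustment over all genes tested and a threshold of 0.05. Joint fits used sums of cells split at 2 plate medians. Deviations of the arms of a plate correlated at 0.128 to 0.394. Correlations used log2(counts per 10000 + 1). Counts of 3' ends limit precision by sampling error, and intervals were taken from plates. Cells rich in another lineage were defined by summed counts of marker lists. DESeq2 1.42.0, other arm widths, filters, thinning and single plate sets were the alternatives. The fits were tested on simulated data.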

Additional observations from a re-analysis of the deposited data

Results flagged for a closer look

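The log2 ratio of Gfi1b, Irf8-high over Irf8-low cells, was 0.743 on plate LC190 and stood apart from the other 7 plates, all of which lay below 0; 49 such groups of plates were examined, and chance sets a plate apart in about 1 group in 20.

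Spi1 differed with Mpo by 0.714 more on the log2 scale on LC than on LCE plates (adjusted p = 0.016, edgeR quasi-likelihood test; 35 such differences were tested over the members).

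The CD135 effect on Cebpb in Dach1-GFP-low cells minus that in Dach1-GFP-high cells was -1.13 (adjusted p = 0.0041, edgeR quasi-likelihood test; 13 such differences were tested over the members).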

How the results depend on the processing

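The 6 members gave 108 results with 1418 alternative values: 1231 kept their direction and their side of the threshold, 85 lost the call, 15 gained it, 84 results past no threshold changed sign and 3 called results reversed. The 1231 include results without a call that stayed without one, so they are not a count of calls that held. Settings in which a member could not be tested are left out of the 1418. The reversed values were Cebpb by CD135 on LCE plates with fluorescence corrected for scatter (0.26), Spi1 by Mpo on LCE plates alone (-0.12) and Cebpb by CD135 at equal Dach1-GFP on LCE plates alone (0.11); the cause was not tested. Depth is 1 limit. Thinned to 3000 counts a cell, or without cells holding Mpo counts, Cebpa, Cebpb and Gfi1b were too sparse to be tested by fluorescence, so those settings say nothing about their calls. Cebpe failed the filter in all 9 comparisons.

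The percentage of genes called in the reported fits was 11.2 for CD135, 11.8 for Sca1, 7.74 for Dach1-GFP, 11.5 for CD48, 6.85 for Mpo, 3.57 for Dntt, 4.84 for Irf8, 1.09 for CD16/32, 2.06 for CD150, 8.7 for CD135 at equal Dach1-GFP, 6.46 for Dach1-GFP at equal CD135, 7.16 for the CD135 by Dach1-GFP interaction, 8.11 for CD135 at equal Sca1, 8.11 for Sca1 at equal CD135, 0.114 for the CD135 by Sca1 interaction, 3.13 for CD135 at equal CD48, 10.9 for CD48 at equal CD135 and 0.0467 for the CD135 by CD48 interaction. With the DESeq2 Wald test, the percentage called was 5.56 for CD135, 5.04 for Sca1, 4.31 for Dach1-GFP, 2.17 for CD48, 1.96 for Mpo, 1.22 for Dntt, 1.77 for Irf8, 0.193 for CD16/32 and 0.8 for CD150, and members called numbered 1 for CD135, 0 for CD48, 2 for Mpo, 0 for Dntt, 0 for Irf8 and 0 for CD150. With no filter on low counts, the percentage called was 5.14 for CD135, 4.88 for Sca1, 3.92 for Dach1-GFP, 5.16 for CD48, 3.2 for Mpo, 1.68 for Dntt, 1.93 for Irf8, 0.572 for CD16/32, 1.09 for CD150, 3.81 for CD135 at equal Dach1-GFP, 3.17 for Dach1-GFP at equal CD135, 2.88 for the CD135 by Dach1-GFP interaction, 3.6 for CD135 at equal Sca1, 2.85 for Sca1 at equal CD135, 1.32 for CD135 at equal CD48 and 3.89 for CD48 at equal CD135, and members called numbered 1 for Dach1-GFP, 2 for CD150, 2 for CD135 at equal Sca1 and 1 for CD135 at equal CD48. With cells split at the plate median, the percentage called was 3.49 for Mpo, and members called numbered 1 for CD48, 2 for Mpo and 0 for Dntt. With the outer 5-group arms, members called numbered 1 for CD135, 1 for CD48 and 0 for Dntt. With cells thinned to 3000 counts, the percentage called was 4.01 for CD135, 3.46 for Sca1, 4.89 for Dach1-GFP, 0.424 for Mpo, 0.351 for Dntt, 0.395 for Irf8 and 1.25 for CD150, and members called numbered 0 for CD135, 0 for Sca1, 0 for CD48, 0 for Mpo, 0 for Dntt, 0 for Irf8 and 0 for CD150. Without cells rich in another lineage, the percentage called was 0.0122 for the CD135 by CD48 interaction, and members called numbered 1 for Sca1, 1 for Dach1-GFP, 2 for CD150 and 1 for Dach1-GFP at equal CD135. On LC plates alone, the percentage called was 7.13 for Sca1, 3.87 for Dach1-GFP, 1.4 for Dntt, 2.81 for Irf8, 0.747 for CD150, 5.38 for CD135 at equal Dach1-GFP, 3.09 for Dach1-GFP at equal CD135, 4.01 for the CD135 by Dach1-GFP interaction, 4.87 for CD135 at equal Sca1, 3.05 for Sca1 at equal CD135 and 0.0534 for the CD135 by Sca1 interaction, and members called numbered 0 for Dntt, 0 for Irf8, 0 for CD150, 2 for CD135 at equal Sca1 and 0 for Sca1 at equal CD135. On LCE plates alone, the percentage called was 4.07 for CD135, 3.15 for Sca1, 0.243 for Mpo, 2.06 for Dntt, 1.16 for Irf8, 5.28 for CD150, 1.31 for CD135 at equal Dach1-GFP, 1.73 for Dach1-GFP at equal CD135, 1.23 for the CD135 by Dach1-GFP interaction, 3.28 for CD135 at equal Sca1, 2.07 for Sca1 at equal CD135 and 0.302 for the CD135 by Sca1 interaction, and members called numbered 1 for CD135, 1 for Sca1, 0 for Mpo, 0 for Dntt, 0 for Irf8, 0 for CD150, 1 for CD135 at equal Dach1-GFP, 0 for the CD135 by Dach1-GFP interaction and 0 for Sca1 at equal CD135. On LCE plates with fluorescence corrected for scatter, the percentage called was 4.49 for CD135, 1.94 for Sca1, 4.66 for Dach1-GFP and 4.51 for CD48, and members called numbered 0 for CD135, 1 for Sca1 and 1 for CD48. Without cells holding Mpo counts, the percentage called was 1.97 for CD135, 1.11 for Sca1, 2.74 for Dach1-GFP and 4.26 for CD48, and members called numbered 0 for CD135, 0 for Sca1 and 0 for CD48. The no-filter fits test every detected gene, so their percentages are over more genes. The LC-only, LCE-only and other-lineage alternatives of the joint fits were chosen after seeing the data. Leaving out 1 plate at a time, the percentage called ranged over 7.17 to 11.3 for CD48, 4.02 to 7.07 for Mpo, 0.64 to 1.14 for CD16/32, 1.36 to 2.77 for CD150, 4.17 to 6.82 for the CD135 by Dach1-GFP interaction, 0.0722 to 0.208 for the CD135 by Sca1 interaction, 2.07 to 2.69 for CD135 at equal CD48, 6.22 to 8.83 for CD48 at equal CD135 and 0.0238 to 0.0696 for the CD135 by CD48 interaction, and members called over 1 to 2 for CD135, 1 to 2 for Sca1, 0 to 1 for CD48, 2 to 4 for Mpo, 0 to 1 for Dntt, 0 to 1 for Irf8, 0 to 2 for CD150, 1 to 2 for CD135 at equal Dach1-GFP, 0 to 1 for Dach1-GFP at equal CD135, 0 to 1 for CD135 at equal Sca1, 0 to 1 for Sca1 at equal CD135 and 0 to 1 for CD48 at equal CD135. For the other values the cause of the change was not tested, beyond the fewer samples or cells that a setting leaves.

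Both arms of a comparison come from the same plate, so the plate is the replicate block of the reported fits. Without the replicate block, the percentage called was 1.68 for CD135, 0.157 for Sca1, 1.82 for Dach1-GFP, 3.21 for CD48, 0.0478 for Mpo, 0.0387 for Dntt, 0.0704 for Irf8, 0.273 for CD16/32, 0.0771 for CD150, 0.933 for CD135 at equal Dach1-GFP, 1.79 for Dach1-GFP at equal CD135, 0.155 for the CD135 by Dach1-GFP interaction, 1.76 for CD135 at equal Sca1, 0.268 for Sca1 at equal CD135, 0 for the CD135 by Sca1 interaction, 1.33 for CD135 at equal CD48, 4.35 for CD48 at equal CD135 and 0 for the CD135 by CD48 interaction, and members called numbered 1 for CD135, 0 for Sca1, 0 for CD48, 1 for Mpo, 0 for Dntt, 0 for Irf8, 0 for CD150, 1 for CD135 at equal Dach1-GFP, 0 for the CD135 by Dach1-GFP interaction, 0 for Sca1 at equal CD135 and 0 for CD48 at equal CD135.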
